A study of Arabidopsis thaliana with 12 samples.

Results

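A group of 6 auxin-related genes of *Arabidopsis thaliana* is described here by its level in every RNA-seq library of the study: SAUR3 (AT4G34790), SAUR14 (AT4G38840), SAUR72 (AT3G12830) and SAUR55 (AT5G50760) of the SAUR family, DFL2 (AT4G03400) of the GH3 family and the nitrilase gene NIT2 (AT3G44300). They were picked by identifier, and are 6 of the 608 genes in the leaf table used here, which holds genes that the authors called changed in leaves. None of them is among the 65 genes of the root table used here, and 656 genes are in either table. The study counted more genes in each organ than these tables hold, and the others were not analysed here. The plants were 11-day-old wild-type seedlings of the Wassilewskija (WS) ecotype grown on plates of solid MS medium and fixed in RNAlater. The 4 groups of 3 libraries were spaceflight leaf and ground control leaf, and spaceflight root and ground control root. Spaceflight plants grew in the Veggie unit on the International Space Station, and ground control plants in a Veggie unit inside a simulation chamber on Earth that replayed the temperature, CO2 and lighting of the station with a delay. All groups shared the ecotype, the medium and the overhead LED light. A replicate was 1 plate, whose RNA came from a pool of 3 plants. Launch, weightlessness and any other difference between the sites cannot be told apart in this design.

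Levels are FPKM as the authors deposited them, a unit that divides the fragments of a gene by the length of its transcript and the size of the library. Differences are on the log2(FPKM + 1) scale, which understates changes of genes with low FPKM, and were tested with limma over the 608 leaf-listed genes. The words rose and fell are kept for genes with a Benjamini-Hochberg adjusted p under 0.05 and a difference of at least 2-fold. The authors chose the 608 genes by the spaceflight difference in these same leaf libraries. Adjusted p-values of leaf differences therefore describe size against spread and are not independent evidence. In leaves 570 of the 608 genes had an unadjusted p under 0.05, so the adjustment changes little there. No counts were used, so the depth of the libraries is unknown and the spread between plates is the only measure of precision. The labels and the paper differ on whether root tips or dissected roots were used, and a material field of the labels exchanges the organ for ground control leaves and spaceflight roots. The organ was therefore taken from the titles, and the markers followed them. The leaf markers LHCB4.2, LHCB1.2 and LHCB2.2, which are 3 of 25 on the marker list, lay between 584 and 12981 FPKM in leaves and between 11.7 and 235 FPKM in roots. The root marker BGLU21, the only 1 of 22 in the tables, lay between 0.34 and 2.12 FPKM in leaves and between 521 and 968 FPKM in roots. Spaceflight leaf 1 was lowest among the leaves in all 3 leaf markers, with LHCB1.2 at 4437 FPKM beside 9418 to 12981 FPKM in the other leaf libraries. Values without it are given where they change a call.

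Auxin is the growth hormone that sets cell expansion, organ initiation and tropic bending, and its level in a cell reflects synthesis, transport, conjugation and breakdown. Auxin binds a receptor complex that removes AUX/IAA repressors, which frees auxin response factors to transcribe early genes such as SAUR and GH3. SAUR genes encode small short-lived proteins, and the best studied members promote cell expansion by holding back phosphatases that switch off the proton pumps of the plasma membrane. GH3 enzymes join auxin and related acids to amino acids, and DFL2 takes its name from the phenotype DWARF IN LIGHT. Nitrilases turn nitriles into acids, and NIT2 can make auxin from indole-3-acetonitrile.

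The SAUR genes have 1 exon each, so no splicing separates them from their relatives, and sequence decides how well reads can be assigned. In TAIR10.1, SAUR3 lies on the plus strand at chr4:16594362-16595153, between SAUR2 (AT4G34780) and SAUR4 (AT4G34800), with a coding length of 327 bases. SAUR14 lies on the minus strand at chr4:18124978-18125559, with SAUR15 (AT4G38850) starting 497 bases away in the opposite direction and a coding length of 300 bases. SAUR72 lies on the minus strand at chr3:4078651-4079627 and SAUR55 on the plus strand at chr5:20644525-20645698, with coding lengths of 399 and 552 bases. The most alike pair among the 4, SAUR3 and SAUR14, had a coding identity of 63.8%, and the other pairs had 37.1% to 50.6%. The longest run that SAUR14 shared with another annotated gene was a stretch of 36 bases, and it is shown because it is where these genes could be confused. It is given as the reference (Columbia) strand of each gene, with bases that differ from SAUR14 in capitals.
SAUR14: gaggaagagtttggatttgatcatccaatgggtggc
SAUR21: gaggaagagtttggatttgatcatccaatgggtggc
SAUR15: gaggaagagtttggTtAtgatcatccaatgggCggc
SAUR3: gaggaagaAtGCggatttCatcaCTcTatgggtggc
SAUR21 (AT5G18030) was identical to SAUR14 there, SAUR15 differed at 3 positions and SAUR3 at 7, and SAUR72 and SAUR55 had no ungapped match. None of the 100-base windows of the 4 SAUR transcripts occurred in another gene, so no SAUR value here rests on a stretch of that length that 2 genes share in the reference.

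NIT2 was the member with a close copy. It lies on the plus strand at chr3:15983199-15985535 with 5 exons and a coding length of 1020 bases, and NIT1 (AT3G44310) begins 1088 bases further on. Coding identity was 89.5% with NIT1 and 85.5% with NIT3 (AT3G44320). The longest run shared by NIT2 and NIT1 was 104 spliced bases, across an intron and within 15984539 to 15984734 of chromosome 3, and is printed with the matching stretch of NIT3, where capitals mark bases that differ from NIT2.
NIT2: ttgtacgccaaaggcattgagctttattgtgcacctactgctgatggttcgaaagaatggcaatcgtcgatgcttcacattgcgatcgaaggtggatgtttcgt
NIT1: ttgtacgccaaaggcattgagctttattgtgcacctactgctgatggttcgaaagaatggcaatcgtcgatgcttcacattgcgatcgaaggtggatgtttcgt
NIT3: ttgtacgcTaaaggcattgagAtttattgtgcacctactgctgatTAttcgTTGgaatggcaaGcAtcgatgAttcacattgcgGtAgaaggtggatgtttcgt
NIT3 differed at 12 of the 104 positions. Only 5 of the 1436 windows of 100 bases along the NIT2 transcript occurred in another gene, so most positions of NIT2 could be told from its copies, although the authors' counting split shared reads by an estimate. DFL2 lies on the minus strand at chr4:1497536-1501599 with 6 exons and a coding length of 1776 bases. Its first 432 bases overlap AT4G03410 on the other strand. The paper names a strand-specific kit and the labels a kit that does not keep strand, so in that overlap DFL2 could not be separated from its antisense partner with certainty.

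In leaves, SAUR3 was the member that stood furthest above ground control relative to its spread. Its FPKM were 28.7, 22.7 and 21.8 in spaceflight leaves, against 2.95, 5.09 and 6.32 in ground control leaves. Every spaceflight library lay above every ground control library, and the lowest spaceflight value was more than 3 times the highest ground control value. The means were 24.4 ± 3.76 FPKM in spaceflight leaves and 4.79 ± 1.71 FPKM in ground control leaves (SD, n = 3 each), a ratio of means of 5.09. SAUR3 had risen by a log2 difference of 2.17 (SE 0.31, limma adjusted p = 0.000224), which ranked it 47 from the highest among the 608 genes. In bulk libraries a change in the number of cells that express a gene and a change in RNA per cell cannot be told apart. In roots it was close to the lower end of the scale, at 0.12, 0.11 and 0.16 FPKM in spaceflight roots, against 0.21, 0.11 and 0.10 FPKM in ground control roots. These root values overlapped, and the log2 difference in roots was -0.01 (95% interval -0.22 to 0.20, limma adjusted p = 0.951).

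SAUR14, the most abundant of the 6 in leaves, lay the other way. It had 84.8, 54.5 and 76.0 FPKM in spaceflight leaves, against 173, 85.2 and 157 FPKM in ground control leaves. The groups did not overlap, but only just, since the highest spaceflight library stood at 84.83 FPKM and the lowest ground control library at 85.19 FPKM. The log2 difference was -0.90 (SE 0.34, limma adjusted p = 0.0244), short of the 2-fold threshold. It passed that threshold without spaceflight leaf 1 (-1.03) and without ground control leaf 2 (-1.21), while the adjusted p was above 0.05 without spaceflight leaf 2 (-0.71, adjusted p = 0.107), ground control leaf 1 (-0.71, adjusted p = 0.0980) or ground control leaf 3 (-0.78, adjusted p = 0.0874). In roots SAUR14 had 1.77, 2.20 and 1.65 FPKM in spaceflight, against 0.61 and 2.23 FPKM in 2 ground control libraries, and it was listed at 0 in ground control root 1. The root groups overlapped, with a log2 difference of 0.73 (95% interval -0.25 to 1.70, limma adjusted p = 0.303). All 3 leaf markers, which the authors had listed as changed in roots, were also higher in every spaceflight root than in every ground control root. LHCB1.2 had 158, 235 and 97.7 FPKM in spaceflight roots, against 76.9, 76.1 and 69.4 FPKM in ground control roots. The part of this in the root values of SAUR14 was not tested.

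Set against each other, SAUR14 and SAUR3 stood at other proportions in the leaves of the 2 conditions. FPKM of SAUR14 was 2.96, 2.40 and 3.49 times that of SAUR3 in spaceflight leaves, against 58.7, 16.7 and 24.9 times in ground control leaves. Both genes were listed for this leaf contrast and were paired for their opposite directions, so the separation follows from that choice. The 2 genes also differed in the sequence before their annotated start. The element bound by auxin response factors has the core TGTCNN, which was searched for on both strands in the 300 bases upstream of each gene. It occurred 4 times before SAUR14, once each before SAUR55, DFL2 and NIT2, and not at all before SAUR3 and SAUR72. The window before DFL2 lies over AT4G03410 and AT4G03405, while the other 5 windows hold no annotated gene. Of 27443 promoter windows of that length in TAIR10.1, 80.6% held at least 1 match, and of the 80 windows of annotated SAUR genes 86.3% did. The number of matches per window was not counted over them, so how common 4 matches are is not known. The windows of SAUR14 and SAUR3 are printed because the leaf differences of these genes ran in opposite directions, at chr4:18125560-18125859 on the minus strand and chr4:16594062-16594361 on the plus strand. Each is written 5′ to 3′ towards the gene, and capitals mark TGTCNN or, on the other strand, NNGACA.
SAUR14: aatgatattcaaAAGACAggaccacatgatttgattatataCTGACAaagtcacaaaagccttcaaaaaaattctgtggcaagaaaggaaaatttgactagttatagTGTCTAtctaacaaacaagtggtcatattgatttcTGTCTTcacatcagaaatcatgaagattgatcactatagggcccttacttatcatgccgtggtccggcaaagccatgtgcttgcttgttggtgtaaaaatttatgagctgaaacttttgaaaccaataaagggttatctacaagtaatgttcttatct
SAUR3: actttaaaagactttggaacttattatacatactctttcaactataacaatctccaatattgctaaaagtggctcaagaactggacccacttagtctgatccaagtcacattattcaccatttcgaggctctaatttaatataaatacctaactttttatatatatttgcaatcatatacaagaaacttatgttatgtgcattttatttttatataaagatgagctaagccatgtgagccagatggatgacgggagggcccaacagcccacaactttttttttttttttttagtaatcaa
The forms TGTCTC (13.0% of windows) and TGTCGG (4.91%), both contained in TGTCNN, were not found before any of the 6 genes. Neither were the G-box CACGTG (7.09% of windows) or the evening element AAAATATCT (2.79%). A match is a run of letters in the Columbia reference and not evidence of binding in these WS plants.

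**Figure D1:**
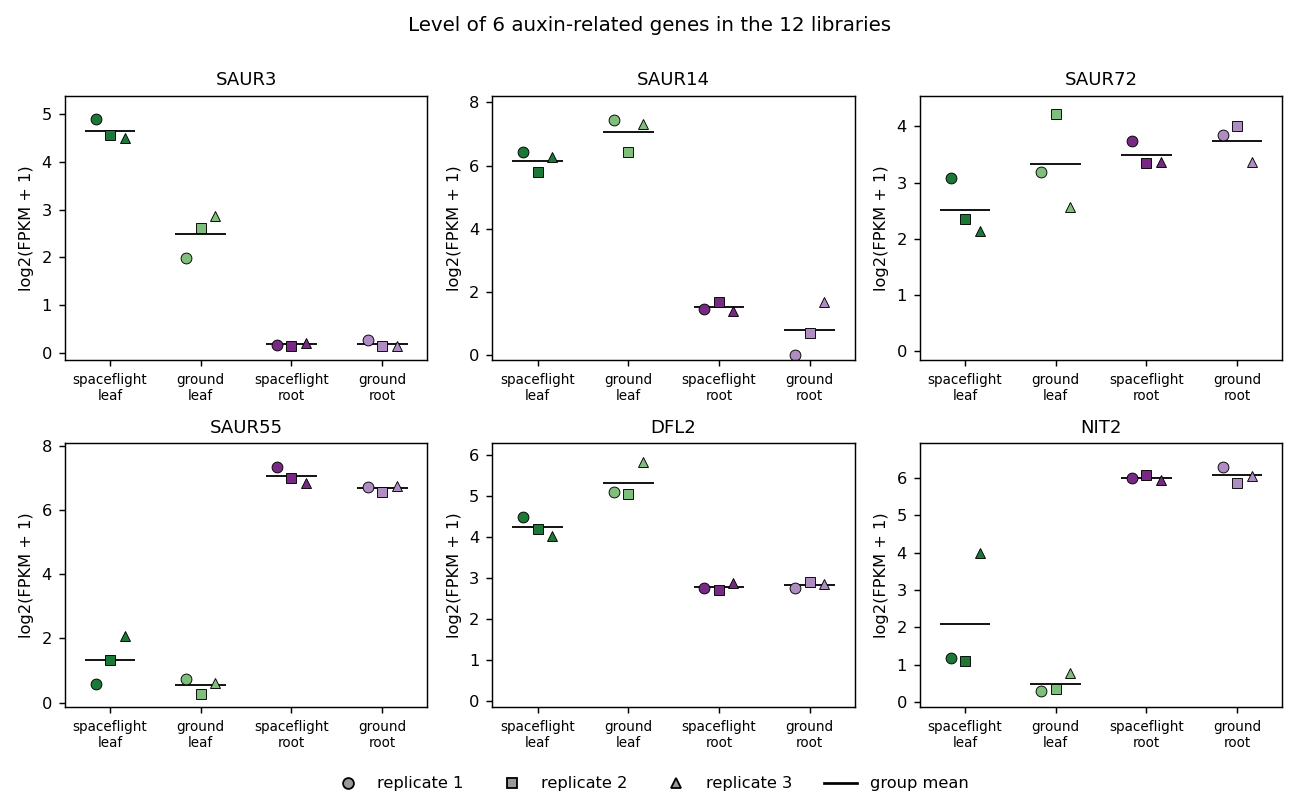
Level of each of the 6 genes in the 12 libraries, as log2(FPKM + 1), with 1 panel per gene and a linear axis whose range differs between panels. Points are single libraries (circle, square and triangle for replicates 1, 2 and 3) and lines are group means; SAUR3, SAUR14 and DFL2 are high in leaves, SAUR55 and NIT2 in roots, and NIT2 in spaceflight leaf 3 (14.98 FPKM) stands away from the other leaf libraries.

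SAUR72 and SAUR55 gave leaf differences that stayed within reach of their plate spread. SAUR72 had 7.42, 4.09 and 3.41 FPKM in spaceflight leaves, against 8.08, 17.6 and 4.90 FPKM in ground control leaves. The groups overlapped, since spaceflight leaf 1 exceeded ground control leaf 3, and the ground control values spanned a 3.60-fold range. The log2 difference was -0.80 (95% interval -1.70 to 0.10, limma adjusted p = 0.0797). It passed both thresholds without spaceflight leaf 1 (-1.08, adjusted p = 0.0337) and without ground control leaf 3 (-1.18, adjusted p = 0.0254), and was -0.35 (adjusted p = 0.383) without ground control leaf 2, the highest leaf library for this gene. In roots, SAUR72 had 12.3, 9.20 and 9.26 FPKM in spaceflight, against 13.3, 15.0 and 9.30 FPKM in ground control, and these values overlapped too (log2 difference -0.25, 95% interval -0.73 to 0.22, limma adjusted p = 0.473).

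SAUR55 was mainly a root transcript. It had 0.49, 1.52 and 3.19 FPKM in spaceflight leaves, against 0.67, 0.21 and 0.53 FPKM in ground control leaves. Spaceflight leaf 1 lay inside the ground control range and the other spaceflight leaves above it. The log2 difference in leaves was 0.78 (95% interval -0.02 to 1.59, limma adjusted p = 0.0591), and it passed both thresholds without spaceflight leaf 1 (1.16, adjusted p = 0.00646) and with a pseudocount of 0.1 (1.46, adjusted p = 0.0234). Without spaceflight leaf 3 it was 0.41 (adjusted p = 0.238). In roots it had 161, 126 and 114 FPKM in spaceflight, against 105, 93.3 and 106 FPKM in ground control. It was the only member whose root groups did not overlap, where 30.4% of the 608 genes did the same. The root means were 134 ± 24.4 FPKM in spaceflight and 101 ± 6.92 FPKM in ground control (SD, n = 3 each). The log2 difference of 0.38 (SE 0.15) had an unadjusted p of 0.0382, which did not pass limma's test after adjustment (adjusted p = 0.160).

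DFL2, the GH3 member, had fallen in spaceflight leaves. It had 21.4, 17.2 and 15.4 FPKM in spaceflight leaves, against 32.9, 32.2 and 55.7 FPKM in ground control leaves, and the groups did not overlap. The means were 18.0 ± 3.11 FPKM in spaceflight leaves and 40.3 ± 13.4 FPKM in ground control leaves (SD, n = 3 each). The log2 difference of -1.09 (SE 0.31, limma adjusted p = 0.00722) lay close to the 2-fold threshold, and came to -0.99 without spaceflight leaf 3 and -0.83 without ground control leaf 3, with adjusted p under 0.05 in both. Root values were even, at 5.71, 5.50 and 6.34 FPKM in spaceflight, against 5.81, 6.43 and 6.24 FPKM in ground control. The root difference was -0.06 (95% interval -0.29 to 0.16, limma adjusted p = 0.705). Among the 6 genes this was the narrowest root interval after that of SAUR3, whose root values near 0 FPKM are compressed on this scale.

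NIT2 was low in leaves except in a single library. It had 1.24, 1.13 and 15.0 FPKM in spaceflight leaves, against 0.22, 0.27 and 0.71 FPKM in ground control leaves. The groups did not overlap, but spaceflight leaf 3 stood 13.3-fold above spaceflight leaf 2, so the mean of 5.78 ± 7.96 FPKM (SD, n = 3) describes none of the plates. NIT2 passed the test in leaves with a log2 difference of 1.62 (SE 0.61, limma adjusted p = 0.0243). Without spaceflight leaf 3 the difference was 0.66 (adjusted p = 0.0530), and without ground control leaf 1 it was 1.52 (adjusted p = 0.106). In roots NIT2 had 62.5, 66.3 and 60.6 FPKM in spaceflight, against 77.6, 57.7 and 65.8 FPKM in ground control. The root groups overlapped, with a log2 difference of -0.08 (95% interval -0.38 to 0.23, limma adjusted p = 0.752).

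Because NIT2 and SAUR55 are root genes, their leaf level was also set against the root level of the same treatment. NIT2 in leaves came to 1.96%, 1.79% and 23.7% of the mean root FPKM in spaceflight plates 1, 2 and 3, against 0.328%, 0.403% and 1.06% in the ground control plates. SAUR55 came to 0.367%, 1.14% and 2.39% in spaceflight, against 0.661%, 0.207% and 0.523% in ground control. The root marker BGLU21, by the same measure, came to 0.136%, 0.169% and 0.352% in spaceflight leaves, against 0.0761%, 0.0398% and 0.0492% in ground control leaves. BGLU21, like NIT2 and SAUR55, was listed by the authors as changed in leaves. A higher share in its spaceflight leaves is therefore partly built in, and it is no unselected reference. Spaceflight leaf 3 was thus the highest leaf library for all 3 genes, and by far the most so for NIT2. It was the highest leaf library for 350 of the 608 genes (57.6%) and for 30 of the 48 genes (62.5%) that stood at least 16-fold higher in ground control roots than in ground control leaves. The summed FPKM of those 48 genes was 576, 427 and 870 in spaceflight leaves, against 222, 242 and 233 in ground control leaves. The 48 were picked in part by low values in these same ground control leaves, among genes the authors had called in leaves. The lower ground control sums, and a highest library among the spaceflight leaves, are therefore partly built in. The part of root RNA in the leaf values of NIT2 and SAUR55 was not tested.

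**Figure D2:**
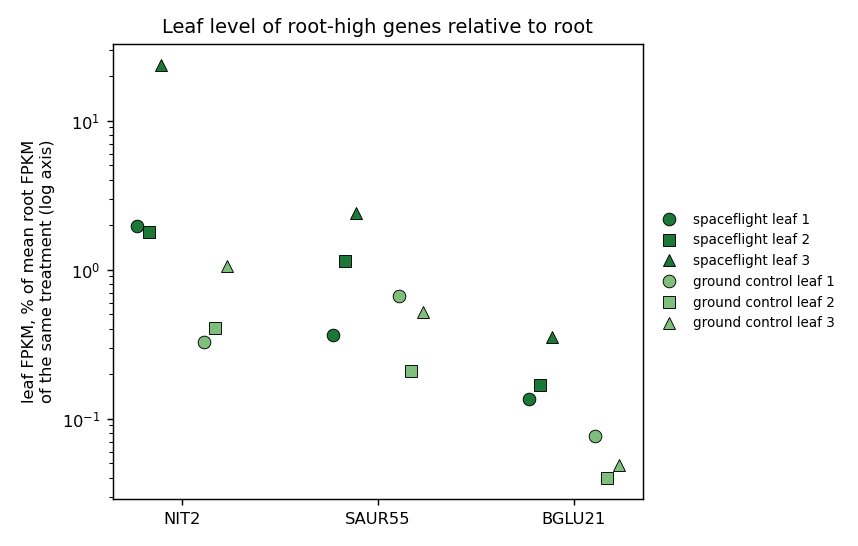
Leaf FPKM of NIT2, SAUR55 and the root marker BGLU21 as a percentage of the mean root FPKM of the same treatment, on a log axis, with 1 point per leaf library. Spaceflight leaf 3 is the highest point for each gene, at 23.7% for NIT2, 2.39% for SAUR55 and 0.352% for BGLU21.

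Over the 6 genes, 3 passed the leaf test (SAUR3 and NIT2 higher, DFL2 lower), where 74.5% of all 608 genes did, 58.1% being higher and 16.4% lower. The genes were listed by the authors for this same leaf contrast, so nothing is read from that count. The count was 1 without spaceflight leaf 3 and 6 without spaceflight leaf 1. The leaf groups did not overlap for 4 of the 6 (SAUR3, SAUR14, DFL2 and NIT2), beside 91.8% of the 608 genes. The members had no common direction. Their median log2 difference in leaves was -0.01, beside 1.09 over all 608 genes. In roots 0 of the 6 passed, where 1 of the 608 (0.164%) did, and at an unadjusted p under 0.05 there was 1 member, SAUR55, beside 166 of the 608 genes. Their median root difference was -0.04, beside 0.04 over all 608.

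**Figure D3:**
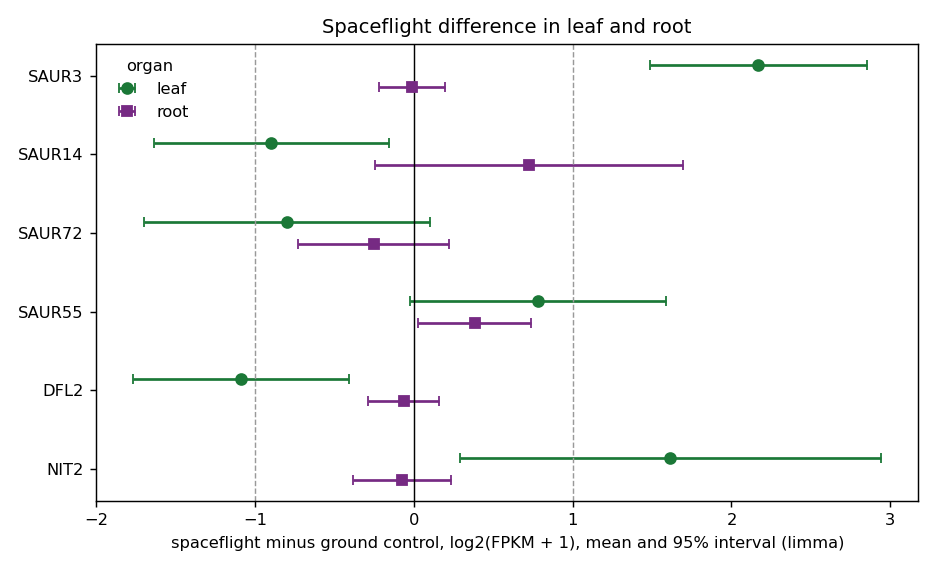
Spaceflight minus ground control on the log2(FPKM + 1) scale for each gene, with leaf as circles and root as squares; bars are 95% intervals from limma and dashed lines mark a 2-fold difference. The leaf intervals of SAUR3, SAUR14, DFL2 and NIT2 exclude 0, and of the root intervals only that of SAUR55 does (0.03 to 0.74, adjusted p = 0.160).

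**Figure D4:**
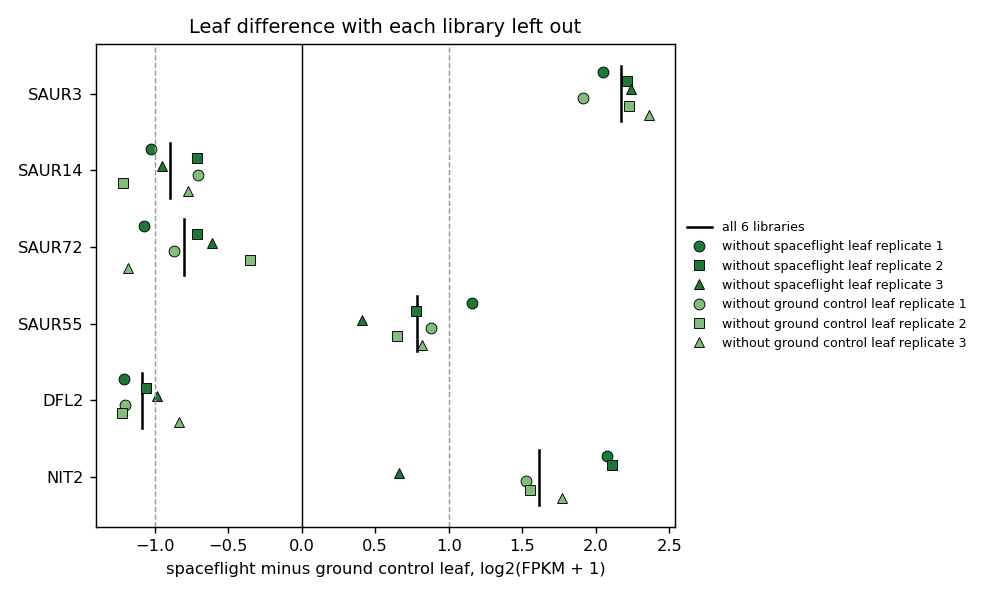
Leaf difference of each gene on the log2(FPKM + 1) scale with each of the 6 leaf libraries left out in turn (points) and with all 6 (vertical lines); dashed lines mark a 2-fold difference. SAUR3 stays between 1.92 and 2.36, while NIT2 is at 0.66 without spaceflight leaf 3 and above 1.5 in the other settings.

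The difference between the organs was then tested itself, in a fit to all 12 libraries. SAUR3 (2.18, SE 0.32, adjusted p = 0.000249), SAUR14 (-1.62, SE 0.52, adjusted p = 0.0151) and DFL2 (-1.02, SE 0.32, adjusted p = 0.0133) differed between leaf and root in their spaceflight difference. These are 3 of the 6 members, where 75.8% of the 608 genes passed, and since the leaf part of the contrast was chosen by the authors it is no independent finding. For SAUR3, root values of 0.10 to 0.21 FPKM can hardly move on this scale, so its result is nearly the leaf difference alone. SAUR72 (-0.55, 95% interval -1.65 to 0.56) and SAUR55 (0.40, 95% interval -0.52 to 1.32) did not pass, although SAUR55 did without spaceflight leaf 1 (0.77, adjusted p = 0.0449). SAUR55 came to 0.03 without spaceflight leaf 3, and SAUR72 to -0.10 without ground control leaf 2. NIT2 stood at 1.69, and its call depended on the fit. It missed without a replicate block (SE 0.78, adjusted p = 0.0599) and passed with the block, which pairs leaf and root of the same number (SE 0.62, adjusted p = 0.0282). Without the block it also passed with any 1 of the spaceflight leaf libraries left out, at 2.15 without spaceflight leaf 1, 2.19 without spaceflight leaf 2 and 0.73 without spaceflight leaf 3. With spaceflight leaf 1 left out the count was 5.

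For SAUR14, SAUR55, DFL2 and NIT2 the leaf minus root difference on the ground was larger in size than the spaceflight difference of either organ. For SAUR3 it was close on this scale to the leaf spaceflight difference (2.30 beside 2.17), and the order turned without ground control leaf 3 (2.11 beside 2.36). Its root values of 0.10 to 0.21 FPKM are compressed by the added 1. By ratio of mean FPKM, SAUR3 stood at 34.2 for leaf over root on the ground, beside 5.09 for spaceflight over ground control leaf. In ground control plants the log2 difference of leaf minus root was 6.27 for SAUR14, 2.48 for DFL2 and 2.30 for SAUR3, and -6.13 for SAUR55 and -5.61 for NIT2. The largest limma adjusted p among these was 2.49e-07. Thus 3 members were higher in leaf and 2 lower, where 67.9% of the 608 genes passed, 22.2% higher and 45.7% lower. The authors did not select on this contrast, but their leaf comparison drew on the same ground control leaf libraries. In that comparison 58.1% of the 608 had risen and 16.4% had fallen, which favours low values in ground control leaves. The larger share below the root level is therefore partly built in, and this background is no unselected reference. On the ground SAUR14 averaged 139 ± 46.9 FPKM in leaves and 0.947 ± 1.15 FPKM in roots, and SAUR55 averaged 0.470 ± 0.236 FPKM in leaves and 101 ± 6.92 FPKM in roots (SD over 3 plates). SAUR72 was the exception, averaging 10.2 ± 6.63 FPKM in leaves and 12.5 ± 2.94 FPKM in roots on the ground (log2 difference -0.41, 95% interval -1.19 to 0.36, limma adjusted p = 0.309). Its ground control leaves were uneven, at 8.08, 17.6 and 4.90 FPKM. With each library left out, the difference lay between -0.86 and -0.03, with limma adjusted p between 0.0211 and 0.929. An absence of an organ difference on the ground therefore cannot be read from it.

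In spaceflight plants the same 5 genes passed, where 66.1% of the 608 genes did, with other sizes. Leaf minus root was 4.64 for SAUR14 and 1.46 for DFL2, both smaller than on the ground, and 4.48 for SAUR3, which was larger. It was -5.73 for SAUR55 and -3.92 for NIT2. The change of each leaf minus root value from ground to spaceflight is the difference between organs tested above. Its leaf part was selected by the authors, so that change is no further result. SAUR72 had an adjusted p of 0.0248 at a log2 difference of -0.96, under the 2-fold threshold, and its spaceflight leaves (3.41 to 7.42 FPKM) lay below its spaceflight roots (9.20 to 12.3 FPKM) without overlap. That difference passed 2-fold without spaceflight leaf 1 (-1.24), without spaceflight root 2 (-1.03) and without spaceflight root 3 (-1.02), and its adjusted p was above 0.05 without spaceflight leaf 2 (0.0745), spaceflight leaf 3 (0.0989) or spaceflight root 1 (0.0841).

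Ordered by mean FPKM, SAUR3 ran from spaceflight leaf through ground control leaf to the roots, and SAUR14 and DFL2 from ground control leaf through spaceflight leaf to the roots. In these 3 genes the root groups overlapped each other and no other neighbours did. SAUR55 was highest in spaceflight root, then ground control root, then the overlapping leaf groups. In NIT2 the root groups overlapped at the top, followed by spaceflight leaf and ground control leaf. In SAUR72 every group overlapped the next, from ground control root at the top to spaceflight leaf at the bottom, although spaceflight leaf and the root groups did not overlap.

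Other genes of the auxin pathway were looked up in the same tables. Lists of the pathway's families, matched on TAIR10.1 names and products and on the authors' gene names, held 229 genes. Of these, 9 were in the leaf table and 0 in the root table. There were 4 of 80 SAUR genes, 1 of 21 GH3 genes and 1 of 8 nitrilases, which are the members above. None of 32 AUX/IAA genes, the repressors of the response, and none of 26 transport genes were in the tables used here. Since these tables are shorter than the lists the study counted, that says nothing of the level of those genes or of whether the authors called them. Of the 9, 2 had risen in leaves, 2 had fallen and 5 did not pass, where 58.1% of the 608 genes had risen and 16.4% had fallen in this selected contrast. In roots 0 of the 9 passed, beside 0.164% of the 608.

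YUC8, a flavin monooxygenase of the main auxin synthesis route and 1 of 18 synthesis genes, had 0.50, 0.45 and 0.47 FPKM in spaceflight leaves, against 0.36, 1.20 and 1.89 FPKM in ground control leaves. Its groups overlapped (log2 difference -0.48, limma adjusted p = 0.164). UGT74E2, which attaches glucose to the auxin precursor indole-3-butyric acid and was 1 of 11 inactivation genes, had fallen by 2.38 on the log2 scale (adjusted p = 9.08e-05). It had 1.86, 1.80 and 1.55 FPKM in spaceflight leaves, against 18.6, 11.6 and 10.8 FPKM in ground control leaves, and its root groups overlapped. ARF32, as the authors' table names AT3G11580, was matched by that name to the 33 genes of perception and response, although TAIR10.1 annotates it as a B3-type transcription factor. It had 4.90, 6.28 and 6.70 FPKM in spaceflight leaves, against 2.80, 2.30 and 2.31 FPKM in ground control leaves, a log2 difference of 1.00 (limma adjusted p = 0.00639) that came just under 2-fold. In roots it lay the other way without overlap, at 7.59, 6.24 and 5.77 FPKM in spaceflight, against 9.31, 11.8 and 8.21 FPKM in ground control (log2 difference -0.51, limma adjusted p = 0.105).

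The profiles over the 12 libraries put SAUR3, SAUR14 and DFL2 on the leaf side and SAUR55 and NIT2 on the root side, and SAUR72 with neither. Pearson correlations of log2(FPKM + 1), given as descriptions over 12 libraries that share the contrast between the organs, were 0.94 between SAUR14 and DFL2, 0.83 between SAUR14 and SAUR3 and 0.97 between SAUR55 and NIT2. SAUR14 and SAUR55 ran opposite, at -0.97. SAUR72 came to 0.45 with SAUR55, 0.34 with NIT2, -0.39 with DFL2, -0.55 with SAUR14 and -0.68 with SAUR3. The leaf-listed genes most like each member by this measure were AT1G75190, AT5G35777 and AT1G13470 for SAUR3 (0.98 each). For SAUR14 they were AT2G07732 (0.99), GPX7 (0.98) and PXG3 (0.98), and for DFL2 AT1G74290 (0.99), AT5G59130 (0.98) and AT3G44450 (0.98). CML19, AT3G20380 and PER45 came closest to SAUR55 (0.997, 0.996 and 0.995), and OSM34, PER34 and AT4G15610 to NIT2 (0.99 each). For SAUR72 no close match was found, and the nearest were ATL13, AT5G22140 and DREB2A (0.81 each).

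These neighbours were picked for likeness over the same libraries, among genes listed for leaves, so a shared pattern follows from that choice. Those of SAUR3 had higher means in spaceflight leaves than in ground control leaves. For AT1G13470 the means were 41.3 FPKM in spaceflight leaves and 6.99 FPKM in ground control leaves. GPX7, a glutathione peroxidase, averaged 7.73 FPKM in spaceflight leaves and 17.6 FPKM in ground control leaves, as SAUR14 did on a higher scale. PER45, a class III peroxidase, averaged 1.85 FPKM in spaceflight leaves and 0.443 FPKM in ground control leaves beside 459 FPKM in spaceflight roots and 505 FPKM in ground control roots. OSM34, an osmotin-like protein, averaged 6.87 FPKM in spaceflight leaves and 0.467 FPKM in ground control leaves, beside 514 FPKM in spaceflight roots and 417 FPKM in ground control roots.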

How the data were processed

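The 12 libraries were grouped by their titles. The authors used Trimmomatic for trimming, STAR for mapping to TAIR10 and RSEM for gene levels (versions not given in the sources used here). Tables deposited by the authors hold the FPKM of each library, the mean CPM of each group, and fold changes and p-values that were not used. Library columns carry no unit. FPKM was inferred, since the deposited mean CPM divided by the mean of these values increased with transcript length (Spearman's rho 0.887 over 606 leaf genes). Only genes that the authors called (FDR under 0.05 and at least 2-fold in an organ) are listed. Here log2(FPKM + 1) was fitted with limma 3.58.1 in R 4.3.3, with 6 libraries per organ or all 12 for contrasts of organs, adjusted over the 608 leaf-listed genes. The steps were checked on simulated data. Alternatives were a pseudocount of 0.1, a mean FPKM of at least 1, no fold threshold, a prior with a trend, median centring in roots, a replicate block, all libraries in one fit and leaving out each library. Sequences, positions and windows are from the TAIR10.1 RefSeq assembly, read with Python 3.11.15. The 6 genes and the pathway lists were chosen with earlier results of these data known. Named genes are the 6, pathway genes in either table, and the 3 genes most correlated with each member.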

Additional observations from a re-analysis of the deposited data

Results flagged for a closer look

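The spaceflight difference of 3 genes was not the same in leaf and root when the difference itself was tested in limma over the 12 libraries. The leaf minus root difference was 2.18 for SAUR3, -1.62 for SAUR14 and -1.02 for DFL2 on the log2(FPKM + 1) scale. The leaf part of each had been selected by the authors, and SAUR14 was listed at 0 in ground control root 1. SAUR3 lay between 0.10 and 0.21 FPKM in all root libraries, where this scale can hardly move. Its value is thus nearly the selected leaf difference of 2.17 alone. No group has more than 3 libraries, so no group was screened for single stray values.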

How the results depend on the processing

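The count of members passing was 3 in leaves, 1 to 6 with each library left out (6 without spaceflight leaf replicate 1, 1 without spaceflight leaf replicate 3), and 3 to 5 for the difference between organs (5 without spaceflight leaf replicate 1). It stayed at 0 in roots and at 5 for ground control leaf against root, and lay between 5 and 6 for spaceflight leaf against root. Over all 608 genes the leaf count of 453 lay between 365 and 568 (568 without a fold threshold), and the root count of 1 between 0 and 21 (11 with centring, 12 with a mean FPKM of at least 1, 4 with the replicate block). With each library left out, root differences near 0 lay between -0.0367 and 0.0320 for SAUR3 and between -0.178 and 0.0334 for NIT2, and changed sign without ground control root replicate 1 (both) and without spaceflight root replicate 2 (SAUR3). The cause was not tested. Of the single-gene values, 424 kept direction and side of the threshold, 18 newly passed and 4 no longer passed. With a pseudocount of 0.1 the difference between organs of NIT2 passed (2.75, adjusted p = 0.0285).

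By the study's methods each plate gave a leaf and a root library from shared plants, but the labels do not say that a number names the plate, and nothing ties numbers of spaceflight to numbers of ground control. Same-numbered libraries deviated together with correlations of -0.03 to 0.07 (spaceflight leaf and root), 0.08 to 0.42 (ground control leaf and root), -0.03 to 0.19 (the leaf groups) and -0.01 to 0.02 (the root groups). In that order, 0 of 3, 2 of 3, 2 of 3 and 0 of 3 libraries correlated best with their own number. With the replicate block the difference between organs of NIT2 passed (1.69, adjusted p = 0.0282), and no other member's call changed. Depth is unknown, so values near 0, such as those of SAUR3 in roots, carry an unknown counting error.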
